A study of Rattus norvegicus with 46 samples.

Results

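Expression of 25 collagen chain genes was described in rat gastrocnemius muscle, out of 14317 genes with a single symbol on the array. The chains were all genes whose platform symbol is Col, a number, the letter a and a number, each read from its probe set with the highest mean over 46 arrays. By class, 10 were fibrillar chains, 4 were basement membrane chains and 11 were other chains. The muscles came from 23 female Sprague-Dawley rats in a model of intensive care. Every rat, in all groups, was under isoflurane and on a ventilator, and its muscles were blocked with α-cobrotoxin, which occupies the acetylcholine receptor of the endplate. A lever flexed and extended the ankle of 1 leg, the loaded leg, at 13.3 cycles per minute for 12 h per day, or less at the shortest duration. The opposite leg got no such movement and is called unloaded. The 6 groups were loaded and unloaded legs of rats kept for 6 h to 4 d (13 rats), 5 to 8 d (4 rats) and 9 to 14 d (6 rats). Rats without blockade were not analysed here, so the shortest window, and not an untreated muscle, is the baseline for duration. The age of the rats and the exact duration of each were not used.

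Values are log2 expression from RMA, a method that quantile-normalises all arrays, and the array medians lay between 6.07 and 6.20. Of the 25 chains, 10 exceeded the median of their own array on all 46 arrays, 14 on some and 1, Col10a1, on 0 arrays. Levels of different probe sets cannot be compared with each other, so each chain is compared only with itself. The labels end in a code of unstated meaning with 5 values. Code 3 holds 10 rats of all windows (4, 2 and 4), code 5 holds 4 rats of the later windows, and the other codes hold only rats of the 6 h to 4 d window. Results for duration are therefore also given for code 3 alone. Of 8 skeletal muscle fibre markers on the array (of 10 listed), all 8 were above the highest array median in every group, and their mean level lay between 12.60 and 13.76. The 2 legs of a rat were paired by consecutive label numbers, which is an inference from the labels.

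Collagens are secreted proteins made of chains wound around each other in a helix. Fibrillar chains build the load-bearing fibrils of the connective tissue sheaths around muscle fibres and of tendon, and fibril-associated chains sit on the surface of those fibrils. Network chains of the basement membrane form a sheet around each muscle fibre and capillary. In muscle most collagen messenger RNA is made by fibroblasts between the fibres.

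**Figure D1:**
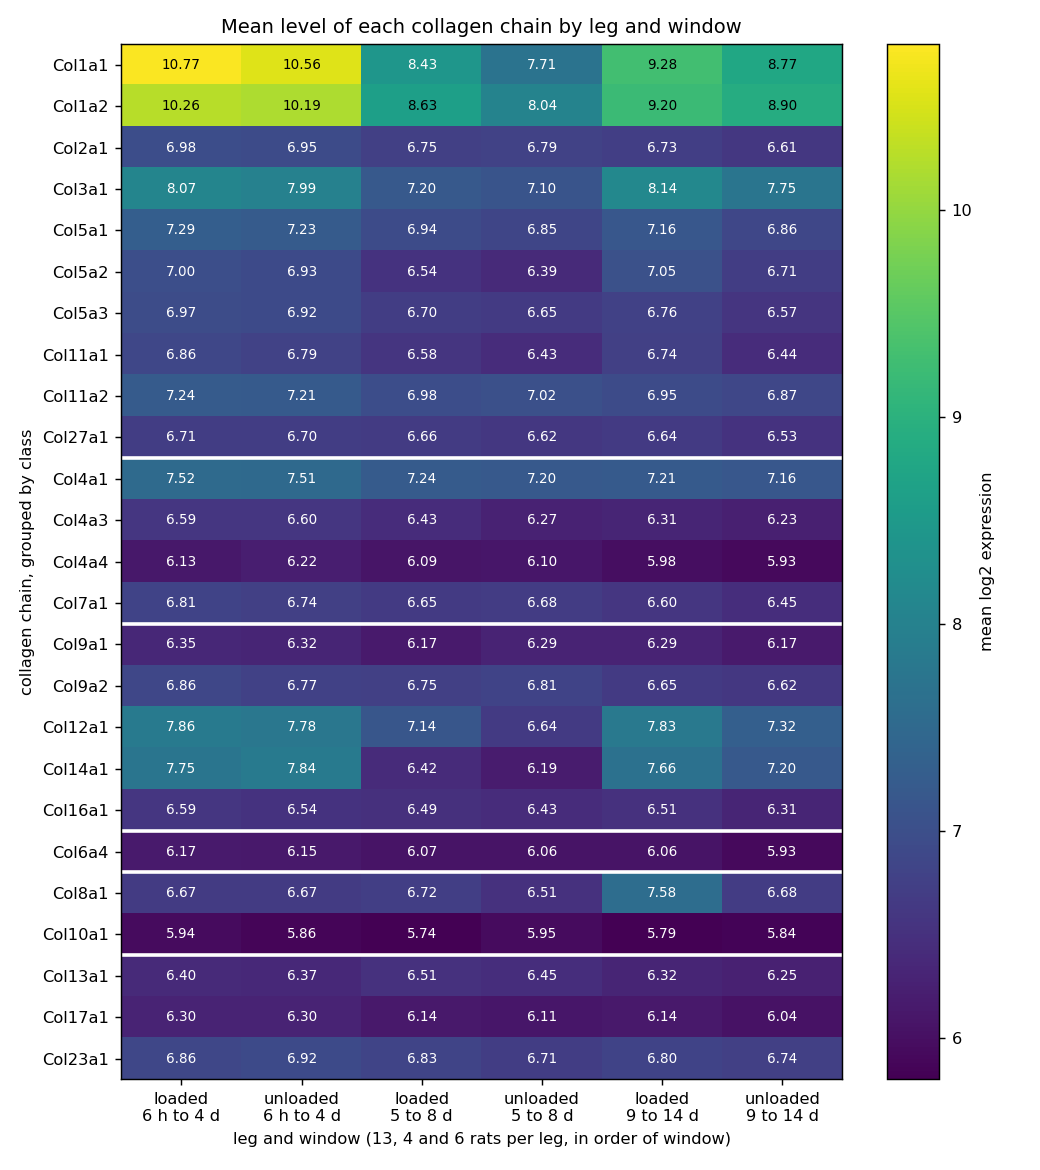
Mean log2 expression of the 25 chains (rows, grouped by class with white lines between classes) in loaded and unloaded legs of each window (columns; 13, 4 and 6 rats per leg). Reading along the row, Col1a1 averaged 10.56 in unloaded legs at 6 h to 4 d, 7.71 at 5 to 8 d and 8.77 at 9 to 14 d, while Col4a1 averaged 7.51, 7.20 and 7.16.

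The type I chains Col1a1 and Col1a2, which together form the main collagen of fibrils, had the widest differences from the 6 h to 4 d window among the chains. In unloaded legs the lowest, median and highest Col1a1 levels were 8.10, 10.68 and 11.94 at 6 h to 4 d. The 4 unloaded legs at 5 to 8 d had Col1a1 levels of 7.28, 7.77, 7.80 and 8.00, and those at 9 to 14 d ran from 7.81 through a median of 8.52 to 10.49. All 4 unloaded legs at 5 to 8 d thus lay below every unloaded leg at 6 h to 4 d, while the 9 to 14 d legs overlapped with both windows. Col1a1 fell by 2.85 at 5 to 8 d relative to 6 h to 4 d (SE 0.60, 7.21-fold lower, limma adjusted p = 0.000829), and by 1.80 at 9 to 14 d (SE 0.51, 3.47-fold lower, adjusted p = 0.00695). In bulk muscle, fewer cells of a type and less RNA per cell cannot be told apart.

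Loaded legs showed the same direction for Col1a1. The lowest, median and highest levels in loaded legs were 8.40, 10.93 and 12.25 at 6 h to 4 d. The 4 loaded legs at 5 to 8 d had 7.96, 8.19, 8.29 and 9.28, and those at 9 to 14 d had 8.01, 8.84 and 11.82 as lowest, median and highest. The loaded groups overlapped in both comparisons. Col1a1 fell by 2.34 in loaded legs at 5 to 8 d (SE 0.63, adjusted p = 0.00543) and by 1.50 at 9 to 14 d (SE 0.55, adjusted p = 0.0295). At 9 to 14 d the call in loaded legs ended without any 1 of rats 45, 47, 57 and 59, with an adjusted p of 0.0529 to 0.0828. The loaded leg of rat 49, a 9 to 14 d rat, held the Col1a1 value of 11.82, and its unloaded leg held the 10.49.

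Col1a2 ran alongside Col1a1. Its unloaded levels at 5 to 8 d were 7.63, 8.04, 8.08 and 8.41, against a lowest, median and highest of 8.27, 10.32 and 11.28 at 6 h to 4 d, so that 1 leg reached into the range of the shorter window. It fell by 2.15 in unloaded legs at 5 to 8 d (SE 0.44, 4.45-fold lower, adjusted p = 0.000746) and by 1.29 at 9 to 14 d (SE 0.38, adjusted p = 0.00888). In loaded legs Col1a2 fell by 1.63 at 5 to 8 d (SE 0.47, adjusted p = 0.00875) and by 1.06 at 9 to 14 d (SE 0.41, adjusted p = 0.0382). The last call ended without any 1 of 9 rats (11, 13, 17, 19, 33, 45, 47, 57 and 59), where the adjusted p lay between 0.0531 and 0.11. The promoter window of Col1a2 is shown because this chain moved most among those with a window in the RefSeq table, which covers 20 of the 25 chains in build GRCr8, from 250 bases before the gene's start to 50 after it. It lies at chr4:33518307-33518606 on the + strand. Capitals mark a TATA box (TATAAA) and a CCAAT box, which here reads as its reverse complement.
Col1a2: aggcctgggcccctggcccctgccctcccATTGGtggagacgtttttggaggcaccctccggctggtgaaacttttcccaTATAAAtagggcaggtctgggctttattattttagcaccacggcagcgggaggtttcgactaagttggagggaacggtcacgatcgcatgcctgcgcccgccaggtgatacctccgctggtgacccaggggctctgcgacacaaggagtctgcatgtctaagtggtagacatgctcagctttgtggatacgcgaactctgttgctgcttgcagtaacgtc
TATAAA is present on either strand in 14.2% and CCAAT in 37.5% of 33469 promoter windows of the same length, and in 4 and 7 of the 20 chains with a window. These matches are letters in a window and were not tested as binding sites.

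The code of the rats moved with the window. Among the 4 rats of code 3 in the 6 h to 4 d window, Col1a1 in unloaded legs was 9.52, 11.94, 8.97 and 8.10 (rats 31, 33, 35 and 37). Rat 37 thus held the lowest Col1a1 value of its group and rat 33 the highest. In code 3 alone, the Col1a1 difference in unloaded legs was -1.73 at 5 to 8 d (SE 0.96, adjusted p = 0.438) and -0.79 at 9 to 14 d (SE 0.78, adjusted p = 0.535), and in loaded legs -1.82 (SE 1.10) and -0.56 (SE 0.90). With the code as a block in the fit of all rats, the Col1a1 differences in unloaded legs were -1.78 (SE 0.73, adjusted p = 0.147) and -0.77 (SE 0.64, adjusted p = 0.407). The directions were those of the whole set, and neither setting called Col1a1. Apart from code 3, the codes found at 6 h to 4 d hold no later rats. The block fit thus sets the later windows against the 4 code 3 rats of 6 h to 4 d, so the 2 settings are not independent.

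**Figure D2:**
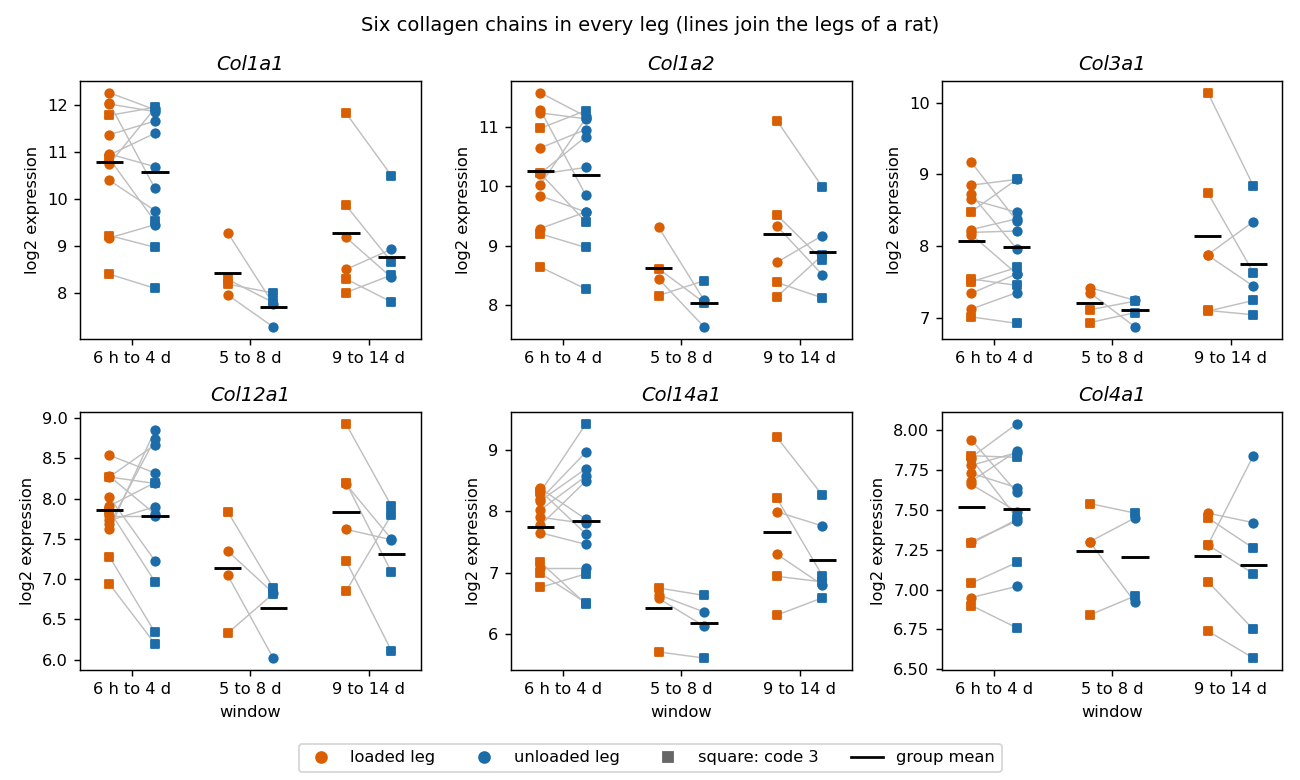
Log2 expression of 6 chains in every leg (y axes) by window (x axes), with loaded legs left of unloaded legs, grey lines joining the 2 legs of a rat, black bars for group means and squares for rats of code 3. For Col1a1 the 4 unloaded legs at 5 to 8 d sit between 7.28 and 8.00, below all 13 unloaded legs at 6 h to 4 d, whose lowest value of 8.10 is a code 3 rat.

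Over all 24 chains that passed the filter on low values, 9 fell in unloaded legs at 5 to 8 d relative to 6 h to 4 d and 0 rose. Of all 9289 genes tested, 35.9% were called in this comparison and 12.3% were called lower. The median difference of the 24 chains was -0.20, against 0.05 over all genes, and 22 of the 24 were negative (16 of 24 in code 3 alone and 21 with the code as a block). By 9 to 14 d, 12 chains fell and 0 rose in unloaded legs, where 45.6% of all genes were called and 16.9% were called lower. Among these 12, the means of Col4a4, Col6a4 and Col17a1 there were under the medians of all arrays. The median of the chains was -0.29 there, against 0.07 over all genes. By class, 5 of 10 fibrillar, 1 of 4 basement membrane and 3 of 10 tested other chains fell at 5 to 8 d, and 6, 3 and 3 of them at 9 to 14 d.

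In loaded legs, 4 chains fell at 5 to 8 d relative to 6 h to 4 d and 0 rose, where 39% of all genes were called and 12% were called lower. By 9 to 14 d, 4 chains fell and 1, Col8a1, rose in loaded legs, where 44.2% of all genes were called, 15.2% lower and 29% higher. The median of the 24 chains in loaded legs was -0.21 at 5 to 8 d (0.06 over all genes) and -0.12 at 9 to 14 d (0.08 over all genes). In loaded legs at 9 to 14 d, 21 of the 24 differences were below 0, but 11 of 24 were in code 3 alone and 12 of 24 with the code as a block. Between the later windows, limma called 0 chains at 9 to 14 d relative to 5 to 8 d in either leg, where 0.226% of all genes were called in each leg. Of all genes, 0.161% were called higher and 0.0646% lower in loaded legs, and 0.0431% lower in unloaded legs. At an unadjusted p under 0.05 this comparison held 3 chains in loaded and 1 in unloaded legs. The share of all genes under that unadjusted threshold is not given, so such counts of chains have no background beside them. Code 3 alone gave 0 called chains in each of these comparisons. The share of all genes called is not given for code 3 alone or for the code as a block. Counts in these settings, for the chains and for the other lists throughout, thus have no background beside them. The 9 chains that fell in unloaded legs at 5 to 8 d had differences of -1.73 to -0.07 there, and the 12 chains of 9 to 14 d had differences of -0.79 to -0.07. At an unadjusted p under 0.05, code 3 alone held 0 chains in unloaded and in loaded legs at 5 to 8 d, and 2 in unloaded and 1 in loaded legs at 9 to 14 d. With the code as a block, 0 chains were called in loaded legs at 5 to 8 d, and 1, Col8a1, at 9 to 14 d. In unloaded legs that block left 0 at 5 to 8 d and 3 at 9 to 14 d, which were Col4a3, Col4a4 and Col6a4. Of these, Col4a4 and Col6a4 each had a mean of 5.93 in unloaded legs at 9 to 14 d, under the medians of all arrays.

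**Figure D3:**
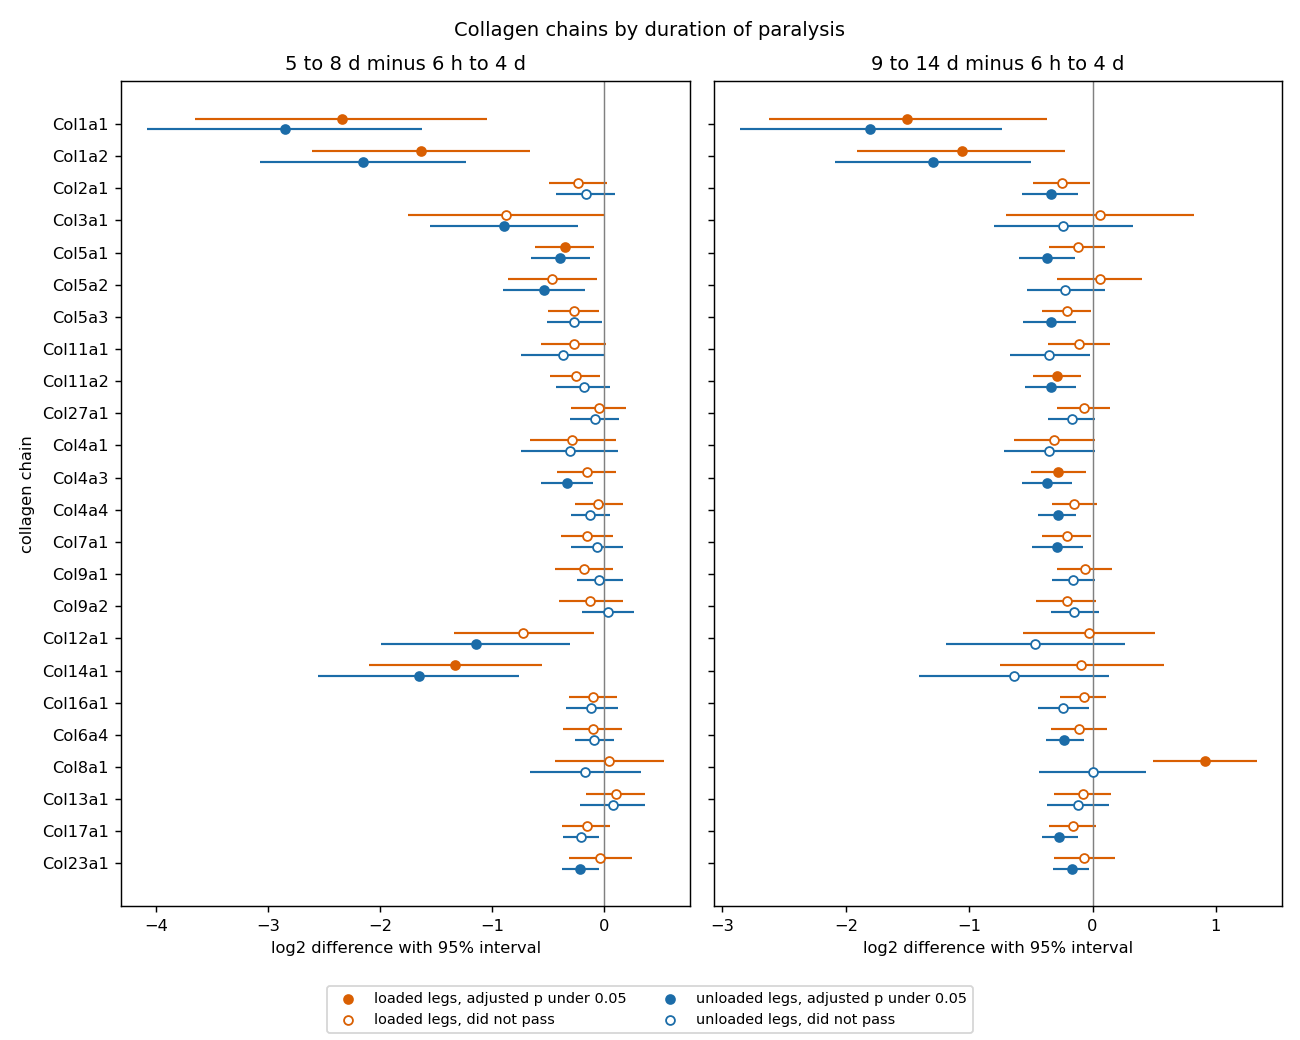
Log2 difference with 95% interval (x axes) of the 24 tested chains (rows) between windows, in loaded legs (orange) and unloaded legs (blue), with filled points where limma's adjusted p was under 0.05. The left panel is 5 to 8 d minus 6 h to 4 d and the right panel 9 to 14 d minus 6 h to 4 d, and the filled point to the right of 0 in the right panel is Col8a1 in loaded legs (0.91, interval 0.49 to 1.33).

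Col3a1, the type III chain of the fine reticular fibrils, had levels of 6.87, 7.07, 7.23 and 7.24 in unloaded legs at 5 to 8 d, against 6.92, 7.96 and 8.93 as lowest, median and highest at 6 h to 4 d. The 5 to 8 d legs lay at the low end of the shorter window and overlapped with it. Col3a1 fell by 0.89 in unloaded legs at 5 to 8 d (SE 0.32, 1.85-fold lower, adjusted p = 0.0321), while the loaded difference of -0.87 did not pass (SE 0.43, adjusted p = 0.108). Neither leg passed at 9 to 14 d, with differences of 0.06 in loaded (95% interval -0.70 to 0.82) and -0.24 in unloaded legs (-0.80 to 0.33). Between the later windows the Col3a1 difference was 0.93 in loaded (adjusted p = 0.382) and 0.65 in unloaded legs (adjusted p = 0.387). The Col3a1 call in unloaded legs at 5 to 8 d ended without any 1 of the rats 41, 53 and 55, with adjusted p between 0.0612 and 0.109. Within code 3 the difference was -0.60 (SE 0.57, adjusted p = 0.683).

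Type V chains start and narrow the fibrils of type I collagen. In unloaded legs at 5 to 8 d, Col5a1 was at 6.71, 6.85, 6.87 and 6.97, against 6.85, 7.23 and 7.62 as lowest, median and highest at 6 h to 4 d, and the groups overlapped. It fell by 0.39 (SE 0.13, 1.31-fold lower, adjusted p = 0.0228), and by 0.37 at 9 to 14 d (SE 0.11, adjusted p = 0.00908). In loaded legs Col5a1 fell by 0.35 at 5 to 8 d (SE 0.13, adjusted p = 0.0305), and its difference of -0.12 at 9 to 14 d did not pass (95% interval -0.35 to 0.10). Col5a2, the partner chain, fell by 0.53 in unloaded legs at 5 to 8 d (SE 0.18, adjusted p = 0.0211), where its levels were 6.28, 6.29, 6.41 and 6.58, against 6.30, 6.95 and 7.51 as lowest, median and highest at 6 h to 4 d, again with overlap. Of the 5 to 8 d calls, that of Col5a1 ended without rat 53 or 55 in unloaded legs (adjusted p of 0.0578 to 0.0962) and without rat 41, 43, 53 or 55 in loaded legs (0.0593 to 0.0741). That of Col5a2 ended without rat 41, 43 or 55 (adjusted p of 0.0512 to 0.0621). Col5a3 fell by 0.34 in unloaded legs at 9 to 14 d (SE 0.10, adjusted p = 0.0105). Its levels there were 6.20, 6.55 and 6.83 as lowest, median and highest, against 6.51, 6.94 and 7.19 at 6 h to 4 d, so that the groups overlapped. Within code 3 the unloaded differences were -0.20 for Col5a1 and -0.47 for Col5a2 at 5 to 8 d (adjusted p = 0.707 and 0.500). At 9 to 14 d they were -0.35 for Col5a1 and -0.30 for Col5a3 (adjusted p = 0.193 and 0.270).

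The remaining fibrillar chains are best known from cartilage. In unloaded legs at 9 to 14 d relative to 6 h to 4 d, Col2a1, the main collagen of cartilage, fell by 0.34 (SE 0.11, adjusted p = 0.0133). The lowest, median and highest Col2a1 levels were 6.31, 6.68 and 6.82 at 9 to 14 d, against 6.61, 7.00 and 7.34 at 6 h to 4 d, with overlap. Col11a2, a type XI chain, was at 6.67, 7.05 and 7.16 in loaded legs at 9 to 14 d, against 6.84, 7.31 and 7.45 at 6 h to 4 d. Its unloaded levels were 6.55, 6.98 and 7.03 at 9 to 14 d, against 6.76, 7.22 and 7.60 at 6 h to 4 d. Both legs overlapped between the windows. Col11a2 fell by 0.29 in loaded (SE 0.10, adjusted p = 0.0187) and by 0.34 in unloaded legs (SE 0.10, adjusted p = 0.00922). The loaded call ended without rat 49 or 51 (adjusted p of 0.0694 and 0.062, differences of -0.24 to -0.23). The partner chain Col11a1 had a difference of -0.35 in unloaded legs that did not pass (adjusted p = 0.0719). Col27a1 passed in no comparison, with differences of -0.07 (loaded) and -0.17 (unloaded) at 9 to 14 d. Within code 3 Col11a2 differed by -0.12 in loaded (adjusted p = 0.660) and -0.21 in unloaded legs (adjusted p = 0.406), and Col2a1 by -0.28 in unloaded legs (adjusted p = 0.286).

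Among the fibril-associated chains, Col14a1 and Col12a1 differed most at 5 to 8 d, both of them molecules that bind the surface of type I fibrils. Col14a1 was at 5.71, 6.58, 6.64 and 6.75 in loaded legs at 5 to 8 d, against 6.76, 7.90 and 8.37 as lowest, median and highest at 6 h to 4 d, with no overlap. It was at 5.61, 6.13, 6.36 and 6.63 in unloaded legs at 5 to 8 d, against 6.49, 7.80 and 9.42 at 6 h to 4 d, where 1 leg overlapped. Col14a1 fell by 1.33 in loaded (SE 0.37, 2.51-fold lower, adjusted p = 0.00728) and by 1.65 in unloaded legs (SE 0.43, 3.15-fold lower, adjusted p = 0.00492). The differences of 9 to 14 d from 6 h to 4 d were -0.09 in loaded (95% interval -0.75 to 0.58) and -0.64 in unloaded legs (-1.41 to 0.13), and neither passed. Col14a1 at 9 to 14 d minus 5 to 8 d was 1.24 in loaded (SE 0.42, adjusted p = 0.174) and 1.02 in unloaded legs (SE 0.49, adjusted p = 0.314). Within code 3 the 5 to 8 d differences were -1.07 in loaded (adjusted p = 0.562) and -1.23 in unloaded legs (adjusted p = 0.514).

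Col12a1 was at 6.02, 6.82, 6.83 and 6.89 in unloaded legs at 5 to 8 d, against 6.20, 7.90 and 8.85 as lowest, median and highest at 6 h to 4 d. It fell by 1.14 (SE 0.41, 2.21-fold lower, adjusted p = 0.0313), and its loaded difference of -0.72 did not pass (SE 0.30, adjusted p = 0.0627). The groups overlapped. Within code 3 the unloaded Col12a1 difference was -0.07 (SE 0.59, adjusted p = 0.974). The call also ended without rat 53 or 55 (adjusted p of 0.0588 to 0.142) and without rats 21 and 27 together. The cartilage fibril chains Col9a1 and Col9a2 and the fibril-associated Col16a1 passed in no comparison. Their differences in unloaded legs at 9 to 14 d were -0.16, -0.15 and -0.24, with adjusted p = 0.143, 0.205 and 0.0527.

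In the basement membrane class, Col4a1, a chain of nearly all basement membranes, passed in no comparison. Its level in unloaded legs was 6.92, 6.96, 7.45 and 7.48 at 5 to 8 d, against 6.76, 7.49 and 8.04 as lowest, median and highest at 6 h to 4 d. The groups overlapped. The difference was -0.28 in loaded (95% interval -0.66 to 0.11) and -0.30 in unloaded legs (-0.74 to 0.13) at 5 to 8 d. For 9 to 14 d it was -0.31 in loaded (-0.64 to 0.02) and -0.35 in unloaded legs (-0.72 to 0.02). These intervals hold 0 and also falls as large as their lower bounds of -0.74 to -0.64.

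Col4a3, a basement membrane chain known from the kidney glomerulus, fell by 0.33 in unloaded legs at 5 to 8 d (SE 0.11, adjusted p = 0.0247) and by 0.37 at 9 to 14 d (SE 0.10, adjusted p = 0.00373). Its levels at 9 to 14 d were 5.95, 6.33 and 6.39 as lowest, median and highest, against 6.23, 6.62 and 6.89 at 6 h to 4 d, with overlap. The 5 to 8 d call ended without rat 41, 43 or 55 (adjusted p of 0.0614 to 0.109) and with array quality weights (-0.19, adjusted p = 0.0779). It also ended in code 3 alone (-0.32, adjusted p = 0.424) and with the code as a block (-0.30, adjusted p = 0.140). In loaded legs at 9 to 14 d Col4a3 fell by 0.28 (SE 0.11, adjusted p = 0.0457), a call that ended without the filter on low values (adjusted p = 0.0571) and without any 1 of 11 rats (11, 13, 15, 17, 19, 23, 27, 43, 47, 49 and 51; adjusted p of 0.0509 to 0.146). Its partner Col4a4 fell by 0.28 in unloaded legs at 9 to 14 d (SE 0.07, adjusted p = 0.00337), where its mean of 5.93 was under the medians of all arrays, so that no fold is given. Within code 3 the Col4a3 difference in unloaded legs was -0.29 at 9 to 14 d (SE 0.14, adjusted p = 0.207), and with the code as a block it was -0.30 (SE 0.11, adjusted p = 0.0472). Col7a1, the chain of the anchoring fibrils of skin, fell by 0.29 in unloaded legs at 9 to 14 d (SE 0.10, adjusted p = 0.0202), where its levels were 6.04, 6.51 and 6.70 as lowest, median and highest, against 6.44, 6.72 and 7.00 at 6 h to 4 d. The Col7a1 groups overlapped, and its call ended without rat 49 or 51 (adjusted p of 0.0604 to 0.0858) and in code 3 alone (-0.27, adjusted p = 0.255).

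Col4a3 and Col4a4 are transcribed in opposite directions from neighbouring starts, and the Col4a3 window is shown because both chains fell at 9 to 14 d. The RefSeq window of Col4a3 is chr9:91323740-91324039 on the + strand of GRCr8, and that of Col4a4 is chr9:91323528-91323827 on the − strand. Capitals mark the 88 bases that belong to both windows.
Col4a3: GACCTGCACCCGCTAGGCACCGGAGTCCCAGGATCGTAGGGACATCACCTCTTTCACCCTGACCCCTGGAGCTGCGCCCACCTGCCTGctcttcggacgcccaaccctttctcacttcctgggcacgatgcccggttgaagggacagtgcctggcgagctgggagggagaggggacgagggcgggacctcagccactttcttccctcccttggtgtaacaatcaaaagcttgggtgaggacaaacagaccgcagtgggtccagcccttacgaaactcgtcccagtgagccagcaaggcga
The leg differences of these chains with loading at 9 to 14 d were 0.08 for Col4a3 and 0.05 for Col4a4, and neither passed (adjusted p = 0.641 and 0.817).

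Among the other chains, Col6a4, Col17a1 and Col23a1 fell in unloaded legs at 9 to 14 d by 0.23, 0.27 and 0.17 (adjusted p = 0.0158, 0.00316 and 0.0461). Col17a1 is a membrane collagen of epithelial anchoring junctions, Col23a1 another membrane collagen and Col6a4 a chain of the beaded filament family. The lowest, median and highest Col17a1 levels were 5.94, 6.05 and 6.12 at 9 to 14 d, against 6.03, 6.27 and 6.55 at 6 h to 4 d, which overlapped. The means of Col6a4 (5.93) and Col17a1 (6.04) at 9 to 14 d were under the medians of all arrays, so no fold is given, and 2 further probe sets of Col6a4 were not used because they were dimmer. The Col6a4 call ended without rat 51 (-0.19, adjusted p = 0.0532). Col23a1 also fell at 5 to 8 d by 0.21 (SE 0.08, adjusted p = 0.0499), a call that ended without the filter on low values (adjusted p = 0.0601). Of the 23 fits that left out 1 rat, 19 did not call Col23a1 at 5 to 8 d (differences of -0.22 to -0.18) and 14 did not at 9 to 14 d (-0.18 to -0.13). In code 3, the differences at 9 to 14 d were -0.33 for Col6a4, -0.15 for Col17a1 and -0.07 for Col23a1 (adjusted p = 0.0898, 0.379 and 0.685). Col13a1, a membrane collagen concentrated at the neuromuscular junction, passed in no comparison. Its difference in unloaded legs was 0.08 at 5 to 8 d (95% interval -0.21 to 0.37) and -0.12 at 9 to 14 d (-0.37 to 0.13). Col10a1, the chain of hypertrophic cartilage, was not tested, and its group means lay between 5.74 and 5.95.

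Few chains were called with passive loading. Over all 23 rats limma called 0 of 24 chains in loaded relative to unloaded legs, where 2.9% of all genes were called (1.82% lower). With array quality weights the counts over all rats and at 5 to 8 d were above 0, as the closing section gives. At an unadjusted p under 0.05 there were 8 chains, and the share of all genes at that threshold is not given. The differences were small and mostly positive, with 23 of 24 above 0 and a median of 0.06, against -0.01 over all genes. Over the 10 rats of code 3, 18 of 24 were above 0, and 12 of 24 were at 6 h to 4 d. Of 9 fibroblast markers, 2 rose with loading over all rats, Pi16 by 0.40 and Mfap5 by 0.38 (adjusted p = 0.0399 and 0.0240), where 1.08% of all genes were called higher. The list held 5 positive and 4 negative differences, and code 3 alone called 0 of its genes. The part of fibroblasts in the collagen differences with loading was not tested. The smallest adjusted p was 0.116, for Col8a1 (0.27, SE 0.10). Col1a1 averaged 9.98 in loaded and 9.60 in unloaded legs, a difference of 0.38 (95% interval 0.08 to 0.67, adjusted p = 0.143), and was higher in the loaded leg of 16 of 23 rats. Rat by rat, the Col1a1 leg difference ran from -1.18 to 1.80. Col3a1 differed by 0.17 (interval -0.03 to 0.36), Col5a1 by 0.12 (0.03 to 0.22) and Col4a1 by 0.03 (-0.07 to 0.13). None of these passed.

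By window, 0 chains were called at 6 h to 4 d, where 0% of all genes were called, and 0 had an unadjusted p under 0.05. At 5 to 8 d, 0 chains and again 0% of all genes were called, and 1 chain, Col1a1, had an unadjusted p under 0.05. Col1a1 was higher in the loaded leg of all 4 of these rats, by 0.19 to 1.51, with a fitted difference of 0.72 (SE 0.34, adjusted p = 0.713). At 9 to 14 d, limma called 1 chain higher, Col8a1, and 0 lower, where 0.269% of all genes were called (0.161% higher). An unadjusted p under 0.05 was held by 9 chains, and the share of all genes at that threshold is not given for any window. All 24 differences were above 0 in this window, with a median of 0.14 against -0.01 over all genes. The same count of 24 came from cyclic loess normalisation and from code 3 alone. Cyclic loess uses the same arrays and code 3 holds 4 of the 6 rats, so these are not independent checks.

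Col8a1, a short-chain network collagen found in vessel walls and in the membrane beneath the corneal endothelium, was higher in the loaded leg of all 6 rats at 9 to 14 d. Its levels in loaded legs there were 6.44, 7.12, 7.31, 7.71, 8.44 and 8.47, against 6.18, 6.19, 6.49, 6.59, 7.26 and 7.35 in unloaded legs. The leg differences were 0.05, 0.26, 0.94, 1.12, 1.13 and 1.95, with the smallest in rats 59 and 47. The groups of legs overlapped, and it was within rats that loaded legs were higher. The fitted difference was 0.91 (SE 0.19, 1.87-fold higher, adjusted p = 0.0385), and an exact two-sided sign-flip test on the 6 leg differences gave p = 0.031, the smallest p that 6 rats allow. At 6 h to 4 d Col8a1 did not differ beyond the spread between rats (-0.00, 95% interval -0.27 to 0.26), with leg differences from -0.66 to 0.75.

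The difference of the loading effect between 9 to 14 d and 6 h to 4 d was 0.91 for Col8a1 (SE 0.23). In limma it did not pass (adjusted p = 0.300), where 0% of all genes were called, and an exact two-sided permutation of the windows over the leg differences of Col8a1 alone gave p = 0.0022. The chain was singled out after its values were seen, so neither this p nor that of the sign-flip test is corrected for that choice. The limma call of Col8a1 at 9 to 14 d ended without the rat block, in code 3 alone (1.06, SE 0.24, adjusted p = 0.239), with the rats of that window alone, and without any 1 of rats 13, 29, 45, 49, 51 and 57 (adjusted p of 0.051 to 0.198). Over all alternatives the difference lay between 0.70 and 1.08, with adjusted p between 0.0106 and 0.607. With duration, Col8a1 rose by 0.91 in loaded legs at 9 to 14 d relative to 6 h to 4 d (SE 0.20, adjusted p = 0.000985). The difference was 1.18 in code 3 alone, where it did not pass (SE 0.40, adjusted p = 0.113), and 1.17 with the code as a block (SE 0.29, adjusted p = 0.00818). In unloaded legs that difference was 0.00 (95% interval -0.43 to 0.43). Beside it, 1 of 9 fibroblast markers, Pi16, rose with loading at 9 to 14 d, by 1.07 (adjusted p = 0.0258), where 0.161% of all genes were called higher. Of the 9 differences, 5 were positive and 4 negative, the lowest -0.31, and code 3 alone called 0 of the 9. The mean level of that list ran from 8.72 to 9.86 in loaded and from 8.70 to 9.46 in unloaded legs of this window. The lists of endothelial (5 tested) and of smooth muscle and pericyte markers (7 tested) had 0 calls with loading there. The part of these cells in the Col8a1 difference was not tested.

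The promoter window of Col8a1, the chain called with loading, lies at chr11:56246532-56246831 on the + strand of GRCr8. Capitals mark GC boxes (GGGCGG, all 4 on the reverse strand) and a SMAD element (CAGACA).
Col8a1: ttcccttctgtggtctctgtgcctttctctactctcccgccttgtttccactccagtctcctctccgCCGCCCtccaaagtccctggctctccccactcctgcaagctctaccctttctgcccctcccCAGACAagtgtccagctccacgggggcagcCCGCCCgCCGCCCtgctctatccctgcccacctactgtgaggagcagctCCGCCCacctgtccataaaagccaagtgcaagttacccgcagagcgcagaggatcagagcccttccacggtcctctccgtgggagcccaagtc
GGGCGG occurs on either strand in 33.1% and CAGACA in 21.1% of all 33469 windows, and in 11 and 3 of the 20 chains with a window. CATTCC, a muscle element, is held by 14.2% of all windows and by 2 of the 20 chains, Col17a1 and Col11a2. No marked motifs overlap each other.

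**Figure D4:**
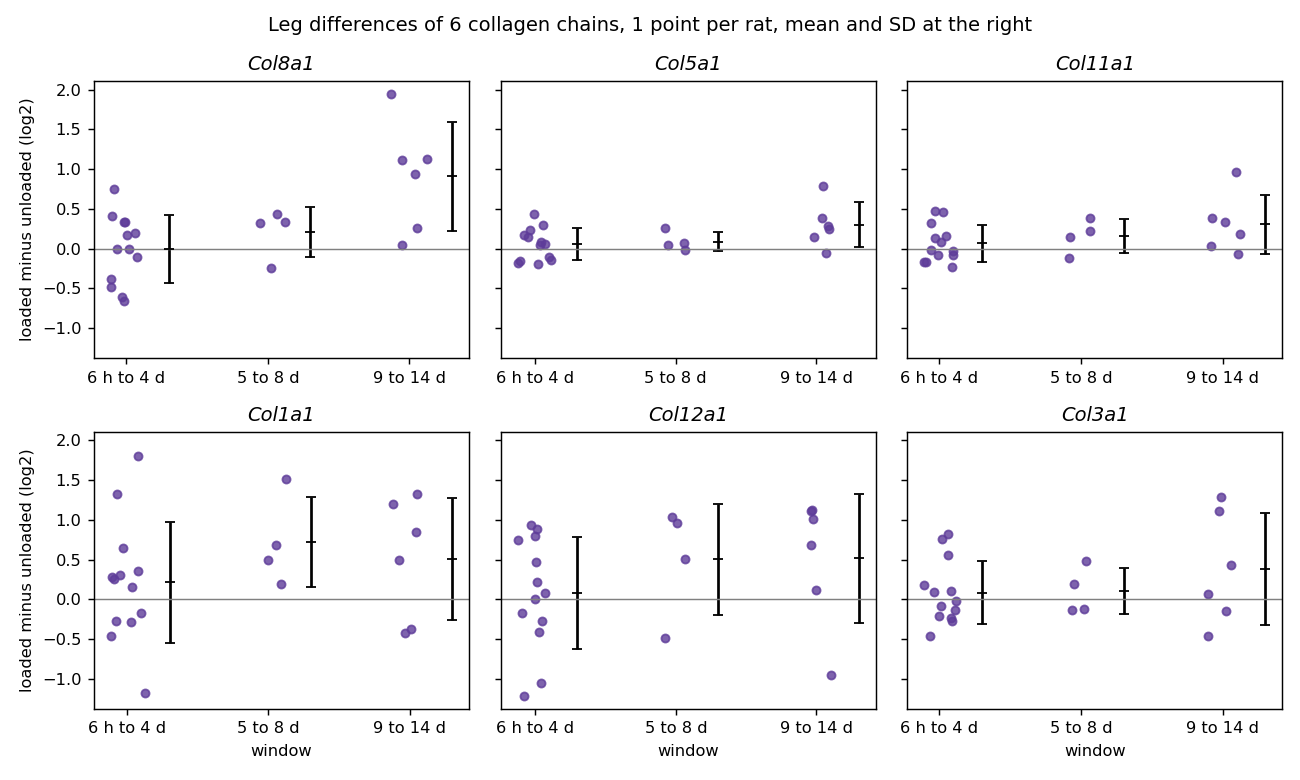
Loaded minus unloaded log2 expression (y axes) of 6 chains in each rat by window (x axes), with the mean and SD of the rats at the right of each window. For Col8a1 all 6 rats at 9 to 14 d lie above 0, from 0.05 to 1.95, while rats at 6 h to 4 d lie on both sides of 0, from -0.66 to 0.75.

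At 9 to 14 d each of the 24 tested chains, fibrillar or not, was higher in the loaded leg of 4 to 6 of the 6 rats. This count therefore does not set the 10 fibrillar chains apart, and the share of all genes with such a count is not given. Col5a1 was higher in 5 of 6 rats, with leg differences of -0.06 to 0.79 and a fitted value of 0.30 (SE 0.09, adjusted p = 0.137). Col11a1 was also higher in 5 of 6 rats (-0.07 to 0.96), with a fitted value of 0.30 (SE 0.11, adjusted p = 0.239). Col1a1 was higher in 4 of 6 rats (-0.43 to 1.33), with a fitted 0.51 (SE 0.28, adjusted p = 0.445). The 10 fibrillar chains had a median of 0.30, the 4 basement membrane chains 0.07 and the 10 tested other chains 0.12. Of the fibrillar and basement membrane chains, none passed.

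The leg differences of several chains went together across rats. With 23 chains each set against Col1a1 over 23 rats, Col1a2 gave Pearson r = 0.97 and Spearman rho = 0.97, each with permutation p = 1e-05, the smallest that 100000 resamples give (adjusted p = 0.00023 for both). Col14a1 gave r = 0.74 and rho = 0.74 (permutation p = 8e-05 for both, adjusted p = 0.00061 and 0.00046). Col11a1 (r = 0.73, rho = 0.77), Col12a1 (r = 0.72, rho = 0.74), Col5a1 (r = 0.64, rho = 0.67), Col5a2 (r = 0.62, rho = 0.75) and Col3a1 (r = 0.61, rho = 0.59) followed, with adjusted permutation p from 0.00038 to 0.011. In all, 7 of the 23 relations passed by r and 9 by rho. No share of all genes that go with Col1a1 is given, so whether this is particular to collagen chains was not tested. Without rats 15 and 17, the farthest from the Col1a1 median, r was 0.95 for Col1a2, 0.72 for Col14a1 and 0.59 for Col3a1. Code 3 alone gave r of 0.94, 0.85 and 0.72 over 10 rats, and code 4 gave 0.97, 0.59 and 0.54 over 6 rats.

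Col4a1 gave r = 0.33 and rho = 0.36 with Col1a1 (permutation p = 0.12 and 0.096, adjusted p = 0.21 and 0.18), and Col7a1 r = -0.02 and rho = -0.02 (permutation p = 0.91 and 0.92). Another basement membrane chain, Col4a3, passed by rho only (r = 0.40, rho = 0.50, permutation p = 0.056 and 0.016, adjusted p = 0.13 and 0.042). Its r was 0.04 in code 3 and 0.86 in code 4. Col8a1 gave r = 0.49 and rho = 0.57 (permutation p = 0.018 and 0.0053, adjusted p = 0.051 and 0.015). These leg differences share the 2 arrays of each rat, so that quality of an array enters all of them.

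**Figure D5:**
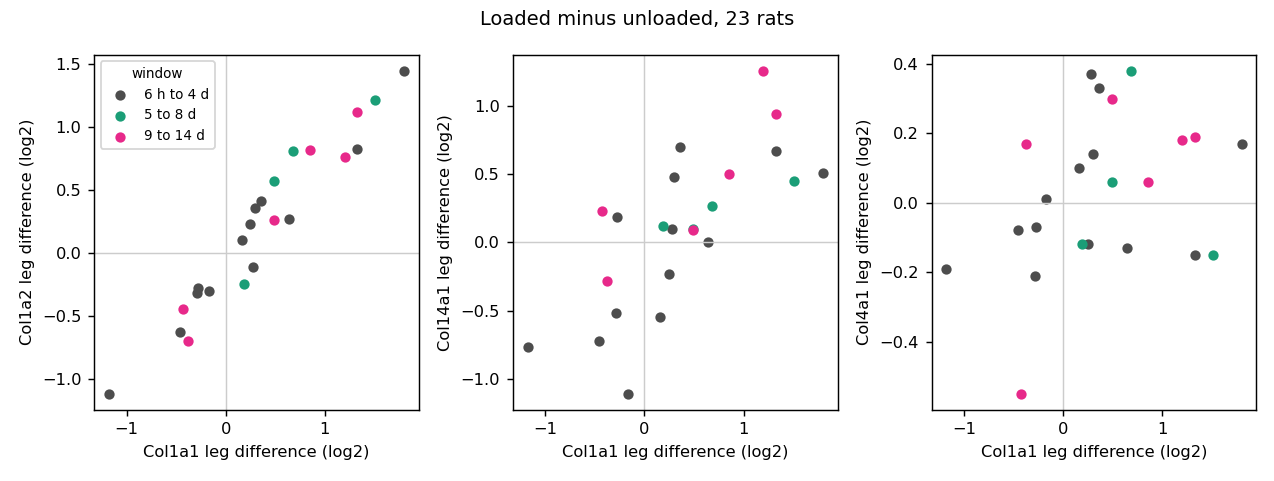
Leg difference (loaded minus unloaded, log2) of Col1a1 (x axes) against that of Col1a2, Col14a1 and Col4a1 (y axes), 1 point per rat and 1 colour per window. The 23 points follow a line for Col1a2 (r = 0.97), a looser one for Col14a1 (r = 0.74) and none that passed the test for Col4a1 (r = 0.33).

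Markers of the cell types that muscle holds were read in the same comparisons. Of 9 fibroblast markers on the array (of 10 listed), 7 fell in unloaded legs at 5 to 8 d relative to 6 h to 4 d, with a median of -0.74, and 2 fell at 9 to 14 d. Of all genes, 12.3% were called lower at 5 to 8 d, and 16.9% lower and 28.7% higher at 9 to 14 d. The mean level of the list per leg ran in unloaded legs from 8.64 to 9.93 at 6 h to 4 d, from 8.29 to 8.69 at 5 to 8 d and from 8.70 to 9.46 at 9 to 14 d. Of 5 tendon markers on the array (of 7 listed), 4 fell and 1 rose in unloaded legs at 5 to 8 d, and the group medians of their mean level were 9.07, 6.78 and 7.87 in the order of the windows. In loaded legs these medians were 8.66, 7.37 and 7.76. In loaded legs, 4 of 9 fibroblast markers fell at 5 to 8 d and 1 at 9 to 14 d. Of the 5 tendon markers, 4 fell in loaded legs at 5 to 8 d, and 4 fell and 1 rose at 9 to 14 d, against 1 that fell and 1 that rose in unloaded legs at 9 to 14 d. Of all genes, 12% were called lower in loaded legs at 5 to 8 d and 15.2% at 9 to 14 d. The tendon markers that fell in unloaded legs at 5 to 8 d were Chad, Kera, Fmod and Tnmd, and the means of Kera and Tnmd there were under the medians of all arrays. The 1 that rose there was Scx, by 0.93. At 9 to 14 d Scx rose by 1.15 in unloaded and by 1.27 in loaded legs (limma adjusted p = 0.00274 and 6.6e-05). No marker was at 0. Of 8 macrophage markers, 1 fell in unloaded legs at 5 to 8 d and 4 rose at 9 to 14 d. At 9 to 14 d, 2 of 5 endothelial, 3 of 7 smooth muscle and pericyte, 1 of 7 adipocyte and 5 of 8 muscle fibre markers fell in unloaded legs, and 1 of 4 Schwann cell markers rose. Within code 3, a setting added for these lists after seeing the data, 1 marker of these 8 lists was called in unloaded legs, the muscle fibre marker Pygm, which fell at 9 to 14 d, and 0 fibroblast and tendon markers were called in loaded legs. The fibroblast median was -0.60 there at 5 to 8 d and -0.07 at 9 to 14 d. The part of these cell types in the collagen differences was not tested.

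Across the 23 rats, the Col1a1 leg difference went with the mean leg difference of the fibroblast list (r = 0.72, rho = 0.75, permutation p = 0.00014 and 7e-05, adjusted over 8 lists p = 0.0011 and 0.00056). For the tendon list r was 0.44 and rho 0.55 (permutation p = 0.037 and 0.0066, adjusted p = 0.15 and 0.026). Within code 3 the values of r were 0.83 for fibroblast and 0.07 for tendon markers over 10 rats, and in code 4 they were 0.33 and 0.73 over 6 rats. Without rats 15 and 17 they were 0.73 and 0.37. For the remaining lists r over 23 rats lay between -0.03 (adipocyte) and 0.33 (macrophage), and none passed by r or rho (smallest adjusted permutation p = 0.31). These leg differences also share the arrays of each rat, and no share of all genes that go with Col1a1 is given. The part of fibroblasts in the Col1a1 leg difference was not tested.

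Lists of genes that act on collagen are given by their counts. Of 11 collagen-binding matrix proteins, 11 fell in unloaded legs at 5 to 8 d (median -1.43), with Fn1 (fibronectin) lower by a log2 difference of -2.58 and Fmod (fibromodulin), which is also in the tendon list, by -2.41. Of these 11, 2 fell at 9 to 14 d. In code 3 alone 0 of the 11 were called in unloaded legs in either window, with medians of -1.09 and 0.01. Of 18 tested enzymes and chaperones of collagen synthesis, 5 rose and 3 fell in unloaded legs at 5 to 8 d, and 7 rose and 1 fell at 9 to 14 d. Of all genes, 23.6% were called higher and 12.3% lower at 5 to 8 d, and 28.7% higher and 16.9% lower at 9 to 14 d. Code 3 alone left 0 calls of this list at 5 to 8 d and 1 at 9 to 14 d, Plod2 (1.79, adjusted p = 0.00524). Plod2, a lysyl hydroxylase, rose by 1.61 at 5 to 8 d and 1.87 at 9 to 14 d, and P4hb, a subunit of prolyl hydroxylase, by 1.01 and 0.62. Crtap, a cartilage-associated protein of the prolyl hydroxylation complex, fell by 0.60 at 5 to 8 d. In loaded legs 5 synthesis genes rose and 1 fell at 5 to 8 d, where 26.9% of all genes were called higher and 12% lower. At 9 to 14 d 7 rose and 1 fell in loaded legs, where 29% of all genes were called higher and 15.2% lower. Plod2 rose there by 1.61 and 2.32, while P4ha1, a catalytic subunit of prolyl hydroxylase, fell by 0.83 at 5 to 8 d and by 0.95 at 9 to 14 d. Code 3 alone called 0 of the list in loaded legs at 5 to 8 d and 1, higher, at 9 to 14 d. Of 8 genes of collagen degradation, 5 fell in unloaded legs at 5 to 8 d, among them the proteases Ctsk (cathepsin K, -0.87) and Mmp2 (-0.58) and the inhibitors of matrix proteases Timp3 (-0.73) and Timp2 (-0.63). By 9 to 14 d 1 of the 8 fell, Timp3 (-0.58), and 4 of the 8 differences were positive, with a median of -0.02. Code 3 alone called 0 of the 8 in unloaded legs at 5 to 8 d and 1 at 9 to 14 d, Timp3 (-0.52, adjusted p = 0.0479). Among 5 collagen receptors, Ddr2 (-0.68) and Itga1 (-0.48) fell in unloaded legs at 5 to 8 d, and code 3 alone called 0 of the 5 in either window.

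Of 5 other basement membrane proteins tested, 1 rose, 1 fell and 3 did not pass in unloaded legs in each of these windows, which is near the share of all genes called (23.6% higher and 12.3% lower at 5 to 8 d, 28.7% and 16.9% at 9 to 14 d). Lama5, a laminin chain, rose by 1.22 in unloaded legs at 5 to 8 d and by 1.92 at 9 to 14 d. Lamb2, the laminin chain of the synaptic basement membrane, fell by 1.00 and 0.87. Code 3 alone called only Lama5 of these 5 genes in unloaded legs, at 9 to 14 d (1.77, adjusted p = 0.00583). With loading at 9 to 14 d, 1 of 9 genes of propeptide removal and cross-linking rose, Loxl1, a lysyl oxidase relative, by 0.99 (SE 0.19, adjusted p = 0.0258), where 0.161% of all genes were called higher. Code 3 alone did not call it (1.10, adjusted p = 0.234). Over all rats 2 of 18 synthesis genes fell with loading, Plod1 by 0.18 and Plod3 by 0.14, where 1.82% of all genes were called lower. Code 3 alone called neither, and in the fit of all rats the remaining lists of genes that act on collagen had 0 calls there.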

How the data were processed

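Gastrocnemius RNA from both legs of 23 rats was hybridised to 46 single-colour Affymetrix arrays. The deposited log2 expression values (26208 probe sets) were made by the authors with RMA, version not stated, per the submitters' processing notes. RMA quantile-normalises the arrays, so a shift of most transcripts 1 way would be partly removed. Genes were named from the platform table, whose symbols can be old, and 14317 had a single symbol.

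Probe sets brighter than the median of their own array on 4 or more arrays were kept, and the brightest stood for its gene. This left 9289 genes, among them 24 of the 25 chains. A mean under the lowest array median got no fold. Chains with no probe set of a single symbol, such as Col6a1, Col15a1 and Col18a1, were not analysed here.

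The test was limma 3.58.1 (R 4.3.3), two-sided, with Benjamini-Hochberg adjustment over the 9289 genes at 0.05. Loading was fitted in 1 model of all arrays that blocks on the rat, and the windows in 23 loaded and 23 unloaded legs separately. Pairs of legs were read from consecutive label numbers. As a check of the pairing, residuals from the group means were correlated between the 2 legs of each rat. The median was 0.60, with over 0.1 in 21 of 23 rats, 0.08 in rat 17 and -0.35 in rat 27. The cause of these 2 low values was not tested. The code was not used as a term in the duration fits. Its alternatives, with cyclic loess, array weights, no filter, means of probe sets, no rat block and omission of rats, are in the closing section.

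Every chain is named at least once, with values for chains past the threshold and for Col1a1, Col3a1 and Col4a1 in the duration and loading comparisons. Values of some other chains that did not pass were added after they were seen. Of each other list, counts and at most the 4 largest called differences are named. The chains, lists and tests were chosen with earlier results of these data known. The fits were tested on simulated data. Precision is limited by how many arrays each group has. No arrays were identical, and the closest were loaded legs 22 and 28 (SD of their difference 0.14).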

Additional observations from a re-analysis of the deposited data

Results flagged for a closer look

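In groups of 4 or 6 rats, 144 checks for a sample far from the others gave 10 such values among the chains. Chance alone gives about 1 in 20. Rat 41 (5 to 8 d) had Col9a1 at 5.67 in its loaded leg, against 6.32 in the nearest other rat, and so a Col9a1 leg difference of -0.68 (nearest 0.00), and its loaded Col14a1 was 5.71 (nearest 6.58). Rat 55 (5 to 8 d) had the lowest unloaded Col12a1, 6.02 (nearest 6.82), and a Col5a3 leg difference of 0.18 (nearest 0.02). Rat 49 (9 to 14 d) had loaded Col5a1 at 7.65 (nearest 7.13), loaded Col23a1 at 6.40 (nearest 6.79) and a Col5a3 leg difference of 0.64 (nearest 0.19). Rat 59 had a Col4a1 leg difference of -0.55 (nearest 0.06), and rat 47 a Col4a4 leg difference of 0.29 (nearest 0.04), both at 9 to 14 d.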

How the results depend on the processing

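None of the 31 called differences of a chain changed direction under the alternatives run. The share of all genes called is not given for any alternative. The counts of chains in this section thus have no background beside them, and a change in a count is not particular to collagen chains. In code 3 alone, limma called 0 chains with loading at 9 to 14 d and 0 in each comparison of 5 to 8 d or 9 to 14 d with 6 h to 4 d, in loaded and in unloaded legs. This setting has fewer rats. With the label code as a block, the counts at 5 to 8 d and 9 to 14 d were 0 and 1 in loaded legs and 0 and 3 in unloaded legs. The 3 include Col4a4 and Col6a4, whose means there were under the medians of all arrays. Without the replicate block, and with the rats of the window alone (chosen after seeing the data), 0 chains were called with loading at 9 to 14 d. Array quality weights gave 1 chain with loading over all rats, 3 with loading at 5 to 8 d and 2 for the difference of that effect from 6 h to 4 d. They also gave 12 and 8 in loaded legs at 5 to 8 d and 9 to 14 d, and 1 in unloaded legs at 9 to 14 d minus 5 to 8 d. Cyclic loess gave 8 and 8 in loaded legs, with the median of all genes at -0.02 and 0.00 in place of 0.06 and 0.08. Without the filter on low values, Col23a1 in unloaded legs at 5 to 8 d and Col4a3 in loaded legs at 9 to 14 d were no longer called (adjusted p = 0.0601 and 0.0571). Means of the kept probe sets ended no call. Without rats 21 and 27, 2 chains were called in loaded legs at 9 to 14 d, and without rats 35 and 37, 9 at 5 to 8 d and 9 at 9 to 14 d. Rats 21 and 27 hold the 2 closest arrays. Without both, Col1a1, Col1a2 and Col4a3 were no longer called in loaded legs at 9 to 14 d. The cause of these changes was not tested. Leaving out each rat in turn gave 0 to 1 chains with loading at 9 to 14 d. In unloaded legs it gave 3 (without rat 55) to 12 (without rat 37) at 5 to 8 d and 9 (without rat 51) to 15 (without rat 37) at 9 to 14 d. In loaded legs it gave 3 (without rat 43, 53 or 55) to 8 (without rat 37) at 5 to 8 d, 2 (without rat 47) to 7 (without rat 31 or 37) at 9 to 14 d, and 0 to 1 (without rat 47) between the later windows. The other comparisons stayed at 0 when a rat was left out.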
